A study of Mus musculus with 6 samples.

Results

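The genes described here encode 10 enzymes of glycolysis, Hk2, Gpi1, Pfkl, Pfkp, Aldoa, Pgk1, Pgam1, Eno1, Pkm and Ldha. They were taken by name as enzymes of the pathway, and all 10 have a row among the 19571 genes of the table. RNA came from mouse E14 embryonic stem cells kept in serum with LIF on gelatin; E14 is a male line that needs no feeder cells. The comparison sets 3 samples with CRISPR/Cas9 knock-out of Dot1l (labelled Dot1L-/-, here Dot1l KO) against 3 wild-type (WT) samples, all labelled day 14. Both groups come from the same line in the same medium. The labels give neither the number of knock-out clones nor whether the samples of a group were separate cultures, so each p-value reflects only how far these samples vary, which may be technical. The enzyme Dot1l methylates lysine 79 of histone H3 within the bodies of active genes. The question is whether the RNA of glycolytic enzymes differed between the genotypes.

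Glycolysis turns glucose into pyruvate in the cytosol and yields ATP without oxygen, and lactate dehydrogenase then turns pyruvate into lactate and restores NAD+. Mouse embryonic stem cells in serum with LIF use both glycolysis and mitochondrial respiration, and the shift to the primed state is known to raise the glycolytic share. Many of these genes are known targets of the hypoxia-inducible factors and of Myc, which bind short E-box-like elements.

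The authors' deposited table gives, for each gene, a mean normalized count over all libraries, a log2 fold change, its standard error (SE) and a p-value, with no value per sample. The spread of single samples, the depth of each library and the overlap of the groups are therefore unknown here. The means of the table sum to 36042647 normalized counts. A positive log2 fold change was read as higher in Dot1l KO, since published work describes the retrovirus MERVL as repressed by Dot1l in such cells. No MERVL value is given here, so this reading rests on that work and was not checked against MERVL here. The table does not name the direction, so under the opposite sign all directions below would turn. Dot1l itself was at -0.16 ± 0.25 (SE) in the authors' deposited table, adjusted p = 0.845 by DESeq2, so its RNA settles neither the direction nor the genotype. The 9 pluripotency markers listed all had a row in the authors' deposited table, with means from 5956 to 44589, and none passed the test (DESeq2, adjusted p from 0.284; at an unadjusted p under 0.05, 1 was higher and 0 lower). Among markers of other cells, 5 of 7 tested fibroblast genes were higher in Dot1l KO by the authors' DESeq2 test. So were 5 of 7 tested primitive endoderm genes and 6 of 7 tested 2-cell-like genes. Zscan4c, Zscan4d and Zscan4f, and likewise Usp17la and Usp17le, are related genes on chromosome 7. How reads shared between them were counted is unknown, so the 2-cell-like genes are not separate observations. Over all genes, 5.34% were called higher. The summed levels implied for WT and Dot1l KO were 1119 and 2583 for fibroblast genes, and 28.3 and 1768 for 2-cell-like genes. For primitive endoderm genes they were 6906 and 10505. Lamb1 alone held 6871 of the summed mean of 8705 of the primitive endoderm genes. It was not called, at 0.20 ± 0.27 (SE), adjusted p = 0.809 by DESeq2. Of the listed markers, Postn, Lum and Dcn (fibroblast), Foxa2 (primitive endoderm) and Dux (2-cell-like) had no row. The part of fibroblast, primitive endoderm and 2-cell-like cells in the results below was not tested.

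None of the 10 glycolytic enzymes passed the test between Dot1l KO and WT. At an adjusted p under 0.05 (DESeq2, Benjamini-Hochberg over all genes), 0 were higher and 0 lower, where 6.58% of all genes were called. At an unadjusted p under 0.05 the count was 0 as well, where 16.2% of all genes lay under that value. The share of calls differs with the level of a gene, and among 20 bins of mean count it was highest in the 9th from below, at 14.8%. All 10 enzymes lie in the highest bin, where 1.53% of genes were called and 6.03% had an unadjusted p under 0.05, so a count of 0 among 10 is near the background. The log2 fold changes ran from -0.56 to 0.06 with a median of -0.12, against -0.02 over all genes tested and -0.20 over the highest bin. There were 7 values below 0 and 3 above 0, while 75.9% of genes in the highest bin were below 0.

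The precision bounds what can be said. Standard errors ran from 0.22 to 0.36 on the log2 scale, and the SD of the 10 log2 fold changes was 0.20, below the median SE of 0.26. The 10 genes were measured in the same samples and are not replicates, so this does not show that they differ by error alone. A gene had to reach 2.94 times its SE to be called, which means a log2 fold change between 0.65 for Pkm and 1.06 for Gpi1. All 10 of the 95% intervals contained 0, and 9 of them lay within 1 log2 unit of 0 on both sides. The exception was Gpi1, whose interval reached down to -1.27. An estimate smaller than these sizes could not be called, and a missed threshold does not show that the levels were equal.

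**Figure D1:**
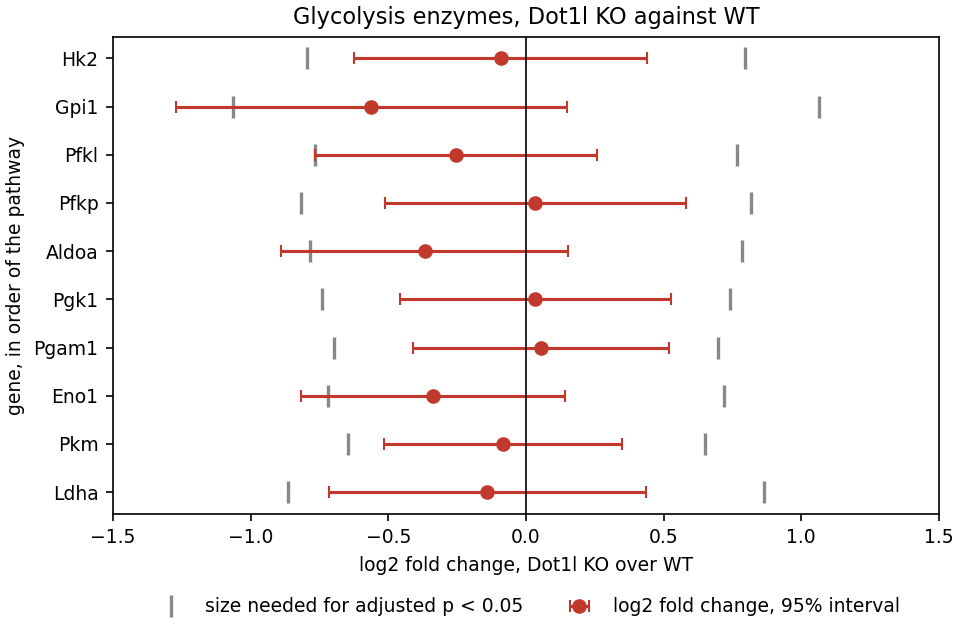
Log2 fold change of the 10 glycolytic enzymes, Dot1l KO over WT, on the horizontal axis, with genes in pathway order on the vertical axis. Points are the deposited estimates, bars their 95% intervals, and grey ticks the size each gene needed for an adjusted p under 0.05; every interval contains 0 and every point lies inside its ticks.

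The upper part of the pathway spends ATP to prime the sugar. Hk2 (chromosome 6, 82725025 to 82774454 in mm10, minus strand) encodes hexokinase 2, which traps glucose in the cell as glucose 6-phosphate. Its mean was 9853 normalized counts in the authors' deposited table, the lowest of the 10, with implied levels of 10169 in WT and 9537 in Dot1l KO. An implied level is the group mean that the mean and the fold change give for groups of equal size. The log2 fold change of Hk2 in the authors' deposited table was -0.09 ± 0.27 (SE), adjusted p = 0.928, and its 95% interval went from 0.649 to 1.36 times WT.

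Gpi1 (chromosome 7, 34201330 to 34230336, minus strand) encodes glucose-6-phosphate isomerase, which makes fructose 6-phosphate. It had the lowest estimate and the widest error of the 10, at -0.56 ± 0.36 (SE), adjusted p = 0.480, where the authors' deposited table has a mean of 32194. The implied levels were 38383 in WT and 26005 in Dot1l KO, or 67.8% of WT, and the interval, from 0.414 to 1.11 times WT, includes equal levels. Gpi1 shares 741 exonic bases with Gm26762, a long non-coding RNA on the other strand. The authors' deposited table gives Gm26762 a mean of only 71.8.

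Phosphofructokinase commits the sugar to glycolysis, and 2 of its 3 subunit genes are among the 10. Pfkl (chromosome 10, 77986947 to 78010083, minus strand), the liver-type subunit, was listed in the authors' deposited table at -0.25 ± 0.26 (SE), adjusted p = 0.722. Pfkp (chromosome 13, 6579768 to 6648777, minus strand), the platelet-type subunit, was at 0.03 ± 0.28 (SE) in the authors' deposited table as well (adjusted p = 0.978). Their implied levels were 27690 in WT and 23206 in Dot1l KO for Pfkl, and 33035 and 33824 for Pfkp. The estimates differ in sign, each lies within 1 SE of 0, and the difference between them was not tested because the table holds no covariance. Pfkp shares 748 exonic bases with Pitrm1 on the other strand. The authors' deposited table gives Pitrm1 a mean of 6165 and 0.38 ± 0.29 (SE), adjusted p = 0.574.

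Aldoa (chromosome 7, 126795234 to 126800751, minus strand) encodes aldolase A, which splits fructose bisphosphate into triose phosphates. The authors' deposited table lists a mean of 97206 for it, at -0.37 ± 0.27 (SE), adjusted p = 0.559. The implied levels were 109566 in WT and 84846 in Dot1l KO, that is 77.4% of WT with an interval from 0.539 to 1.11 times WT.

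The lower part of the pathway returns ATP and held the most abundant of the 10. Pgk1 (chromosome X, 106187100 to 106203699, plus strand) encodes phosphoglycerate kinase, the first ATP-forming enzyme of the pathway. Its estimate in the authors' deposited table, 0.03 ± 0.25 (SE) and adjusted p = 0.975, corresponds to implied levels of 68784 in WT and 70434 in Dot1l KO. Pgam1 (chromosome 19, 41911923 to 41918660, plus strand), the phosphoglycerate mutase, had the highest estimate of the 10, which the authors' deposited table gives as 0.06 ± 0.24 (SE), adjusted p = 0.952. Its implied levels were 45064 in WT and 46842 in Dot1l KO, and its interval went from 0.753 to 1.43 times WT.

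Eno1 (chromosome 4, 150236721 to 150248879, plus strand) encodes enolase 1, which forms phosphoenolpyruvate, and was the 4th most abundant gene by mean count of the whole table. The authors' deposited table has it at a mean of 205044 and -0.34 ± 0.24 (SE), adjusted p = 0.561. Implied levels were 228915 in WT and 181172 in Dot1l KO, or 79.1% of WT with an interval from 0.567 to 1.10 times WT. Pkm (chromosome 9, 59656368 to 59679375, plus strand), the muscle-type pyruvate kinase that makes pyruvate and ATP, followed as the 5th. It had the smallest error of the 10, and the authors' deposited table has -0.08 ± 0.22 (SE), adjusted p = 0.921, for a mean of 198379. The Pkm interval from 0.700 to 1.27 times WT was the narrowest on the log2 scale, around implied levels of 204044 in WT and 192713 in Dot1l KO. Counts per gene do not separate the M1 and M2 splice forms of Pkm, which differ by a single alternative exon. Pkm also shares 767 exonic bases with Gm49759, a provisional gene model on the same strand, whose mean the authors' deposited table puts at 3126.

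Ldha (chromosome 7, 46841475 to 46855627, plus strand) encodes the A subunit of lactate dehydrogenase, the form that favours making lactate. In the authors' deposited table it was at -0.14 ± 0.29 (SE), adjusted p = 0.891, with a mean of 115183. The implied levels were 120797 in WT and 109570 in Dot1l KO, that is 90.7% of WT, and the interval went from 0.608 to 1.35 times WT.

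The 10 genes lie on 8 chromosomes, with Gpi1, Aldoa and Ldha on chromosome 7. Together they held 2.31% of all normalized counts of the table. Summed over the 10, the implied level was 886447 in WT and 778150 in Dot1l KO, and no test applies to this sum. The same sum was also lower in Dot1l KO over all genes tested, at 3.88e+07 in WT and 3.32e+07 in Dot1l KO. Over the highest bin it was 2.14e+07 in WT and 1.77e+07 in Dot1l KO. When each fold change was centred on the median of its bin of mean count, the median of the 10 became 0.08, and 6 were above and 4 below 0. The centring subtracts the same bin median from all 10, and it turned the signs of Hk2, Pkm and Ldha, none of which passed with either sign.

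**Figure D2:**
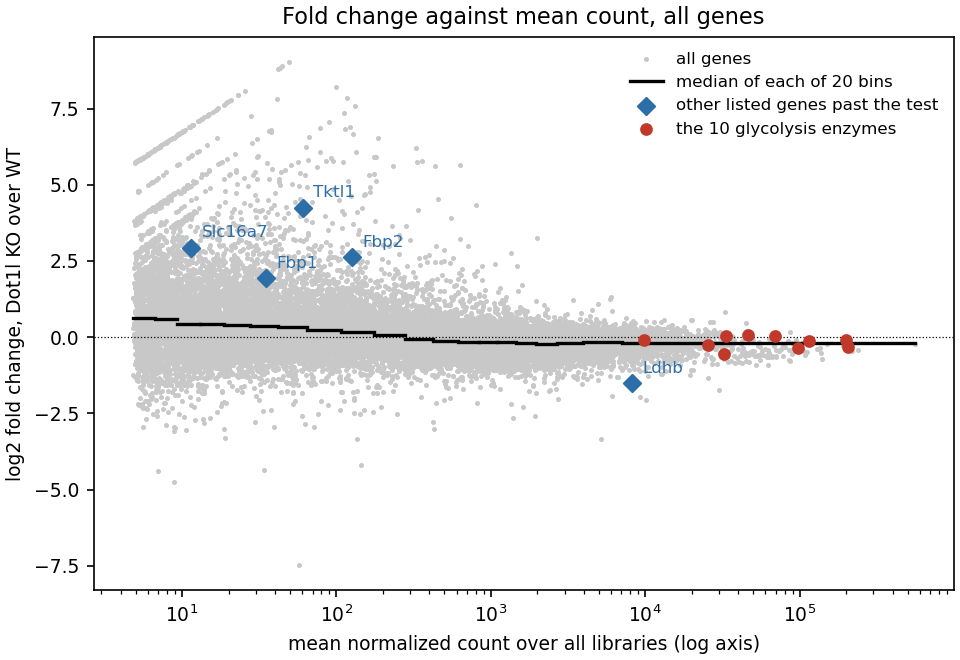
Log2 fold change (vertical axis, Dot1l KO over WT) against mean normalized count (horizontal log axis) for all 19571 genes in grey, with the median of each of 20 bins in black. The 10 glycolytic enzymes (red circles) sit at the right end close to the bin median of -0.20, and the blue diamonds are the other listed genes past the test.

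Processed copies of glycolytic genes are common in the mouse genome, and the sources used here do not say how reads mapping to several places were counted. Transcripts of other annotated genes matching a member at 95% identity or more over at least 300 bases were found for Eno1 (3 genes), Pgk1 (4), Ldha (3), Gpi1 (1), Pgam1 (1) and Pkm (1), and for none of Hk2, Pfkl, Pfkp and Aldoa. Of these 13 copies, 8 have a row. Eno1b, a retrogene identical to Eno1 over 99.5% of 1736 aligned bases, carried a mean of 44063 and stood at -0.49 ± 0.33 (SE), adjusted p = 0.508, as the authors' deposited table has it. It thus took 17.7% of the counts of the pair, and with both summed the implied log2 ratio was -0.36, close to that of Eno1 alone. The other 7 copies with a row had means from 10.3 to 191 in the authors' deposited table, far below their parent genes. The lowest adjusted p among them was 0.0784, for the Eno1 pseudogene Gm5855 at -1.12 ± 0.41 (SE) in the authors' deposited table, a gene named after its values were seen. The level of Eno1 is therefore uncertain by the counts assigned to Eno1b.

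The RefSeq promoter windows of the 10 genes (GRCm38.p6, all 10 matched, 16 start sites) were read for the letters that hypoxia-inducible factors and Myc proteins are known to bind. The motifs searched on both strands in the 250 bases before each start were ACGTG, its variant GCGTG, plus the E-box CACGTG, which contains the first. ACGTG was found in 7 of 16 windows (43.8%), against 16.6% of all windows and 26.8% of those of genes in the highest bin. GCGTG was in 43.8%, against 28.2% and 52.0%, and CACGTG in 6.25%, against 6.02% and 10.5%. The windows with ACGTG belonged to 6 genes, and 2 windows of Aldoa and 2 of Eno1 overlap each other, so these shares are descriptions. The windows of Ldha, Pgk1 and Hk2 are shown because they hold ACGTG at the most places, 3, 2 and 2. All 3 genes stood within 1 SE of no change between the genotypes. Pgam1 and Pkm, also with ACGTG in a window, and Pfkl and Pfkp, with no ACGTG in their windows, did so as well. Aldoa, with ACGTG, and Gpi1 and Eno1, without it, stood further than 1 SE from no change. A link between motif and fold change was not tested. The sequences read 5′ to 3′ along the gene's strand, with ACGTG or GCGTG of either strand in capitals, from chr7:46845554-46845803 (plus strand), chrX:106186850-106187099 (plus strand) and chr6:82774455-82774704 (minus strand).
Ldha: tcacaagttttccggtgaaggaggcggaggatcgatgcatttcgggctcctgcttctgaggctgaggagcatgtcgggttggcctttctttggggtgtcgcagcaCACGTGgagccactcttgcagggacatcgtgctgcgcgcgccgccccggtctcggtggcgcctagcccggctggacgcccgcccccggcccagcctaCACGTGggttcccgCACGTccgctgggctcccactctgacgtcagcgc
Pgk1: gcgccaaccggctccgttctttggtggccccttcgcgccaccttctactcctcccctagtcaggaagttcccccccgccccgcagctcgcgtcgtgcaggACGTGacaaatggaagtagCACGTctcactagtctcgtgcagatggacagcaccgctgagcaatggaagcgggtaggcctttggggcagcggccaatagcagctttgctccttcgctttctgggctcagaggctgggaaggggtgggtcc
Hk2: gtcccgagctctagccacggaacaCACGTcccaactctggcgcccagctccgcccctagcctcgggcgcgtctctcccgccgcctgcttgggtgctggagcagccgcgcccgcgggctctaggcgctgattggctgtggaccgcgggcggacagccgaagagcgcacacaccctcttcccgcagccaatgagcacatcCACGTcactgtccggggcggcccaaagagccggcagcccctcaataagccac
The capitals CACGTG at 2 places in Ldha are the palindromic E-box, and Ldha was the only one of the 10 with that motif in a window. A match shows only that the letters are present.

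Levels per length allow the RNA of isozymes of a step to be compared. Divided by the length of 1 representative transcript per gene, the order of the 10 by mean normalized count per kb was Eno1 (101156), Pkm (81570), Ldha (65223), Aldoa (64332), Pgk1 (38142), Pgam1 (25889), Gpi1 (11163), Pfkp (8065), Pfkl (6823) and Hk2 (1787). Without values per sample, no spread can be put beside this order, and close neighbours such as Ldha and Aldoa cannot be ranked. Hk2, Pfkl and Pfkp, of the upper part of the pathway, were the lowest. Gapdh, which is not among the 10, exceeded them all at 153543 counts per kb. For the steps with several isozymes, the member, or both members for phosphofructokinase, held most of the counts per kb of its step. Aldoa had 98.7% of aldolase, Pgam1 99.2% of mutase, Eno1 99.0% of enolase with Eno1b left out, Pkm 99.98% of pyruvate kinase and Ldha 91.1% of lactate dehydrogenase. With Eno1b counted, at 24603 counts per kb, Eno1 held 79.8% of enolase and Eno1b 19.4%. Hexokinase and phosphofructokinase were shared. Hk2 held 55.3% and Hk1 43.2% of hexokinase, and Pfkp held 51.8%, Pfkl 43.8% and the muscle-type Pfkm 4.43% of phosphofructokinase.

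**Figure D3:**
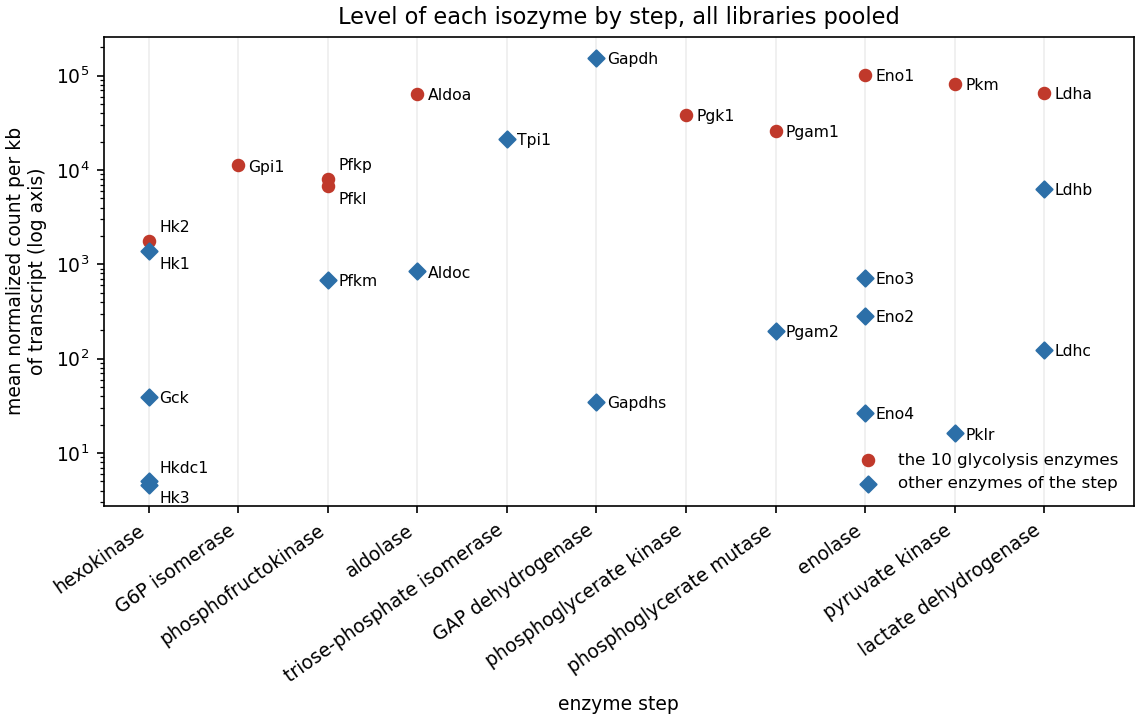
Mean normalized count per kb of transcript (vertical log axis, all libraries pooled) for the listed isozymes of the 11 enzyme steps (horizontal axis). Red circles are the 10 enzymes described and blue diamonds the others of the same step; Hk2 and Hk1 lie close together, as do Pfkp and Pfkl, whereas Aldoa, Eno1, Pkm and Ldha stand far above the isozymes drawn, and the Eno1 copy Eno1b, at 24603, is not drawn.

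Among the other enzymes and isozymes, 1 of 18 tested passed, the B subunit of lactate dehydrogenase. Ldhb (chromosome 6, 142490249 to 142507957), which favours the conversion of lactate to pyruvate, fell by 1.51 ± 0.37 (SE, log2 scale) according to the authors' deposited table, adjusted p = 0.00208. Implied levels were 12062 in WT and 4245 in Dot1l KO, or 35.2% of WT. In bulk RNA, fewer cells that express a gene and less RNA per cell cannot be told apart. By implied levels per kb, Ldhb made up 11.9% of lactate dehydrogenase RNA in WT and 4.97% in Dot1l KO, and Ldha 88.0% and 94.8%. The fall of Ldhb and the value of Ldha were not tested against each other. Ldhb no longer passed with Bonferroni adjustment. Over all genes, 1.25% were called lower.

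Of the steps with no gene among the 10, neither Gapdh nor Tpi1 passed. Gapdh, the dehydrogenase that captures inorganic phosphate, was at -0.46 ± 0.25 (SE) with adjusted p = 0.355 per the authors' deposited table, which has Tpi1, the enzyme that interconverts the triose phosphates, at -0.48 ± 0.28 (SE) with adjusted p = 0.428. Minor isozymes mostly had wider errors. The neuronal enolase Eno2 was at -0.69 ± 0.50 and the muscle enolase Eno3 at -1.04 ± 0.43 (SE), with adjusted p of 0.562 and 0.147, values of the authors' deposited table. Hk1 stood at -0.02 ± 0.38, Pfkm at -0.15 ± 0.29, Aldoc at -0.49 ± 0.42 and Bpgm, which diverts the pathway to bisphosphoglycerate, at 0.03 ± 0.31 (SE) in the authors' deposited table. This list had 8 values above and 10 below 0, with a median of -0.08.

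The surrounding lists, 128 genes in 10 lists of which 124 were tested, gave 4 genes higher and 1 lower, where 5.34% of all genes were called higher. Their median log2 fold change was -0.10. Each of the 4 that rose had a mean count under 500, in a range where 9.31% of all genes were called, against 2.91% of those with a higher mean. Tktl1 (chromosome X, 74177259 to 74208500), a transketolase-like gene, rose by 4.25 ± 0.55 (SE) in the authors' deposited table, adjusted p = 4.88e-12, from an implied 6.04 in WT to 114.9 in Dot1l KO. It was the only one of 8 pentose phosphate genes to pass, and the list's median was -0.33. Fbp2 and Fbp1, neighbours on chromosome 13 (62836877 to 62858422 and 62864753 to 62888282), encode the fructose bisphosphatases that oppose phosphofructokinase. By the authors' deposited table Fbp2 rose by 2.63 ± 0.49 (SE) with adjusted p = 7.02e-06 and Fbp1 by 1.94 ± 0.57 (SE) with adjusted p = 0.0143. Their implied levels went from 35.2 to 217 for Fbp2 and from 14.5 to 55.7 for Fbp1, small beside the implied levels of Pfkl and Pfkp above. The other 5 tested gluconeogenesis genes did not pass. Slc16a7, a monocarboxylate carrier, was higher at 2.93 ± 0.93 (SE), adjusted p = 0.0287, where the authors' deposited table lists a mean of only 11.5. Fbp1 and Slc16a7 no longer passed after centring within bins of mean count, with adjusted p of 0.0956 and 0.107. These 4 rises stood beside the higher fibroblast, primitive endoderm and 2-cell-like markers given above, and the part of such cells in them was not tested.

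In the remaining lists no gene passed DESeq2's test at an adjusted p under 0.05. Of 5 genes that set fructose 2,6-bisphosphate, the activator of phosphofructokinase, 0 passed at either an adjusted or an unadjusted p, and the lowest p-values were those of Tigar and Pfkfb4. The authors' deposited table gives Tigar, a bisphosphatase that p53 is known to induce, -0.42 ± 0.44 (SE) and the kinase-phosphatase Pfkfb4 0.11 ± 0.28 (SE). The 13 genes of pyruvate dehydrogenase, its kinases and phosphatases and the pyruvate carrier, which link glycolysis to the citric acid cycle, had a median of -0.12, and 0 had an unadjusted p under 0.05. Their lowest p-values belonged to the kinase Pdk2 at -0.60 ± 0.36 and the phosphatase Pdp2 at 0.36 ± 0.28 (SE) in the authors' deposited table. The 17 citric acid cycle enzymes had a median of -0.03 and 0 with an unadjusted p under 0.05, with Sdhb at -0.46 ± 0.26 and Sdhd at -0.42 ± 0.25 (SE), both of succinate dehydrogenase, at the lowest p in the authors' deposited table. Glycogen and other side branches had a median of -0.02 over 17 genes, with 0 at an unadjusted p under 0.05. Glycogen synthase Gys1 at -0.38 ± 0.23 and sorbitol dehydrogenase Sord at 0.43 ± 0.30 (SE) led it by p in the authors' deposited table.

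Regulators of glycolytic genes did not pass either. Of 15 tested, 0 were called, 2 were lower at an unadjusted p under 0.05, and the median was -0.21, close to that of abundant genes. The 2 lower genes were the RNA-binding protein Lin28a at -0.64 ± 0.29 (SE), adjusted p = 0.226, and the Myc family member Mycn at -0.91 ± 0.45 (SE), adjusted p = 0.276, by the authors' deposited table. Myc itself was at 0.06 ± 1.15 (SE) in the authors' deposited table, the widest error of the 15, where the median SE was 0.29. Its interval went from 0.219 to 4.94 times WT. A call for Myc needed a log2 fold change of 3.37, so its result cannot tell a large change from none. The 17 hypoxia-inducible genes outside the pathway had a median of 0.00 and none at an unadjusted p under 0.05. The mitochondrial protein gene Fam162a was at -0.58 ± 0.34 and the collagen prolyl hydroxylase P4ha2 at 0.63 ± 0.38 (SE), with adjusted p of 0.411 and 0.443, values of the authors' deposited table. Among the 9 tested glucose and lactate carriers Slc16a7 was the only call, and the other 8 values were below 0, with a list median of -0.29.

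**Figure D4:**
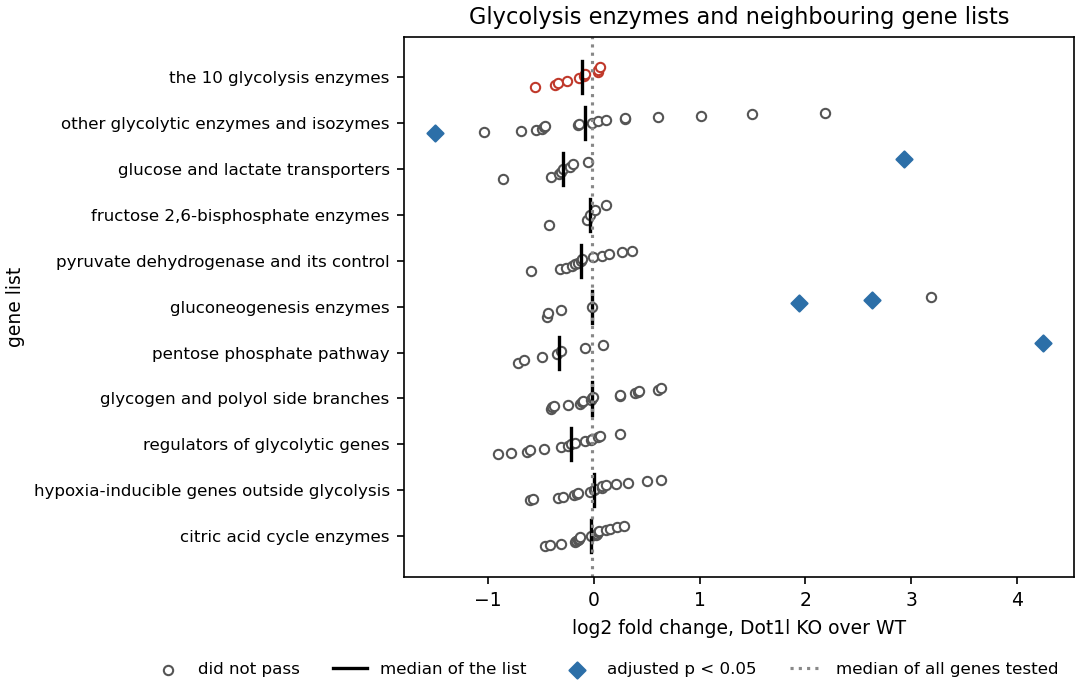
Log2 fold change (horizontal axis, Dot1l KO over WT) of each tested gene in the 10 glycolytic enzymes and the 10 surrounding lists (vertical axis), with the median of each list as a black bar and that of all genes as a dotted line. Blue diamonds passed at an adjusted p under 0.05: Ldhb at -1.51, Slc16a7, Fbp1, Fbp2 and Tktl1; the 10 enzymes (red) lie between -0.56 and 0.06.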

How the data were processed

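RNA of 3 Dot1l KO and 3 WT samples was sequenced. Per the submitters' processing notes, reads were aligned with HISAT2 2.1.0 to mm10, counted with featureCounts 2.0.0 and tested with DESeq2, with no version, strand or multi-mapping setting given in the sources used here. The deposited gene table holds the authors' own comparison. Per the file headers, its mean signal is the average of read counts divided by size factors, its effect a log2 fold change with standard error, its score the Wald statistic, and its p-value a Wald p with Benjamini-Hochberg adjustment. Recomputing the score, p and adjustment gave the same values; 7 genes have no p.

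Calls are those of the authors' DESeq2 test at an adjusted p under 0.05. The planned edgeR fit needs counts per sample, and the tables used here hold none, so it was not made. Intervals are 95% normal intervals from the SE. Centred fold changes were tested again by Wald statistics, a step tested on simulated data. The simulation used the same shift for every gene, so it did not cover a shift that differs with mean count. Coordinates and transcript lengths are from GENCODE release M21 (GRCm38), matched by symbol; lengths are of the longest principal transcript. Copies were found with blastn 2.17.0. Promoters are from RefSeq. The alternatives were a threshold of 0.01, Bonferroni adjustment, a log2 fold change of at least 1, 2 ways of centring and a mean count of at least 50. Named genes were all 10 members, 9 enzymes that complete the steps, and per list those past the threshold or else the 2 with the smallest p. The members and lists were chosen with earlier results of these data known. Tables of transposable elements were not used here.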

Additional observations from a re-analysis of the deposited data

How the results depend on the processing

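Across the 6 alternatives, the count of glycolytic enzymes called was 0 each time. Among the 124 surrounding genes tested, 5 calls (4 higher, 1 lower) became 3 (2 higher, 1 lower) at a threshold of 0.01, after centring within 20 bins of mean count, or at a mean count of at least 50, where Slc16a7 and Fbp1 were not tested. With Bonferroni adjustment 2 were called, Tktl1 and Fbp2, both higher, so the count of lower genes became 0. Centring within bins turned the sign of Hk2 to 0.11, Pkm to 0.12, Ldha to 0.058, Hk1 to 0.15 and Pfkm to 0.072, none of which passed with either sign, since it subtracts the bin median. Tktl1 and Fbp2 passed under all 6 alternatives, and Ldhb under all but Bonferroni adjustment. No paired analysis was possible because the table holds no values per sample; for the same reason leaving out each replicate and the comparison of edgeR with DESeq2 scaling were not run. At these SEs, an estimate for the 10 enzymes had to reach 0.65 to 1.06 log2 units, depending on the gene, to be called. The depth of the libraries is unknown.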

Other observations

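The oxidative branch of the pentose phosphate pathway, which draws on glucose 6-phosphate to make NADPH, was looked at after its values were seen. G6pdx, its first enzyme, has -0.66 ± 0.26 (SE) and adjusted p = 0.120 (DESeq2) by the authors' deposited table. Pgls, the lactonase that follows, was at -0.71 ± 0.36 (SE) with adjusted p = 0.310, and Pgd, the last, at -0.49 ± 0.34 (SE) with adjusted p = 0.529, by the authors' deposited table. All 3 estimates lay below 0 and none passed the threshold. The medians of their bins of mean count were below 0 too, at -0.19 for G6pdx, -0.17 for Pgls and -0.20 for Pgd. Pck1, an enzyme of gluconeogenesis with a mean of only 6.43, did not pass, and the authors' deposited table has it at 3.19 ± 1.38 (SE) with adjusted p = 0.181.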
